A study of Mus musculus with 39 samples.

Results

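The genes described here are the ligands, receptors and best known targets of the Notch pathway in mouse breast tumors that carried either of 2 forms of the HER2 receptor. Their 10 members were taken by symbol, not by their values, from a table of 20520 genes: the ligands Jag1, Jag2, Dll1 and Dll4, the receptors Notch1, Notch2, Notch3 and Notch4, and the targets Hes1 and Hey1. All 10 were in the table and all 10 passed the filter on low values, which kept 13650 genes.

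Poly(A) RNA was sequenced from PB2 tumors, which the labels call mouse breast tumor xenografts. They expressed full-length HER2 (FL-HER2) or p95HER2, a truncated HER2 that lacks most of the extracellular domain, and were collected on day 10 or day 22 after implantation. The 39 libraries fell into 4 groups, with 10 of FL-HER2 on day 10, 9 of FL-HER2 on day 22, 10 of p95HER2 on day 10 and 10 of p95HER2 on day 22. No group without a HER2 construct was analysed here, so every comparison is between constructs or between days. The labels give neither the promoter of the constructs nor the strain or age of the host mice. They give each library its own tumor number but do not say whether the tumors came from separate animals. P-values therefore speak of the spread among these libraries, part of which may be technical. The number in the column name has 5 digits in 8 FL-HER2 day 10 libraries and 3 digits in the other 2 and in all other groups. The 5 digits can be read as numbers run together, which would make these libraries pools, and this could not be settled from the labels.

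Notch receptors are single-pass proteins that are activated by ligands on a neighboring cell. Binding and pulling by a Jagged or Delta-like ligand exposes the receptor to cleavage by ADAM proteases and then by gamma-secretase, and the freed intracellular domain joins Rbpj and Mastermind proteins on DNA. In the mammary gland Notch signaling takes part in the choice between luminal and basal fates, and in blood vessels Dll4, Notch1 and Notch4 act in sprouting and arterial identity.

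The promoters below are shown for Jag1, the member that differed most between the constructs, and for Lfng and Hey2, pathway genes that changed with time and whose promoters hold the core letters bound by Rbpj. RefSeq promoter windows of build GRCm38.p6 were found for 8 of the 10 members, the ligands and receptors, but not for the targets Hes1 and Hey1. The only windows of Notch1 and Jag2 lay inside the gene as GENCODE M21 annotates it. Each window covered the 250 bases before the annotated start, and was searched on both strands for TGGGAA, read as TTCCCA on the other strand. None of the windows of the 8 members held these letters, which says only that they are not in these windows. Of all 32851 windows 21.6% held them, and 5.42% held the longer GTGGGAA (or TTCCCAC), whose matches lie within those of the shorter motif. The capitals mark the motif, and only bases outside the gene as GENCODE M21 annotates it are printed, 5′ to 3′ on the strand of the gene.
Jag1, minus strand, chr2:137116645-137116770: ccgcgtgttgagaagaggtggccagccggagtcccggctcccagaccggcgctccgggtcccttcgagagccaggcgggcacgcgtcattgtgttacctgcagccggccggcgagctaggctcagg
Lfng, plus strand, chr5:140607091-140607319: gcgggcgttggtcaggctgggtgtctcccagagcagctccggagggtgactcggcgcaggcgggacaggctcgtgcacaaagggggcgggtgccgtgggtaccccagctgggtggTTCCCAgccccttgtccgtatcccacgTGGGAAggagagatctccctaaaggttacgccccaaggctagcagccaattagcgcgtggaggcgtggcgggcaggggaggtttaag
Hey2, minus strand, chr10:30842802-30843033: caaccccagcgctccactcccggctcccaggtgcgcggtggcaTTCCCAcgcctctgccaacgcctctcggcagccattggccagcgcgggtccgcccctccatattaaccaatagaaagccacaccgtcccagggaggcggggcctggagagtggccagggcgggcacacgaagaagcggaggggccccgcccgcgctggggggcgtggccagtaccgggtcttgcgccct
Lfng held 1 match on each strand, at 108 and 135 bases before its RefSeq start, and Hey2 held 1 match at 207 bases before its own. Both genes were picked for their matches. The window of Nrarp, which also changed with time, was searched and held no match, while windows of Rbpj and Hes5 held matches.

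The libraries held 21772259 to 44427621 reads in genes (median 34802110), and the markers of tumor epithelium were present in all of them (11 of 11 with reads, 2109 to 3200 CPM in sum). Libraries of FL-HER2 on day 10 held the most reads of skeletal muscle markers, 1.84% ± 1.13 (SD, n = 10) against 0.313% ± 0.404 (SD, n = 10) in p95HER2 on day 10, and 11 libraries stood apart by skin markers (2 and 5 on day 10 and 1 and 3 on day 22, FL-HER2 first). The summed level of fibroblast markers ran from 7299 to 21140 CPM in FL-HER2 on day 10, from 1102 to 3140 CPM in FL-HER2 on day 22, from 4306 to 9724 CPM in p95HER2 on day 10 and from 1493 to 2860 CPM in p95HER2 on day 22. It did not overlap between the days under either construct, and it overlapped between the constructs on both days. In bulk tumors fewer cells of a type and less RNA per cell cannot be told apart. The split of all genes into higher and lower depended on the scaling. Over all genes tested on day 10, 2071 were higher and 3565 lower in p95HER2 on the deposited scale, against 3908 and 2256 after quantile normalization. Between the days in FL-HER2, 2830 were higher and 4181 lower on day 22 on the deposited scale, against 5002 and 3002 after quantile normalization.

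Levels are given below in CPM (reads scaled to a common total of reads in genes) as the lowest, median and highest library of a group. Comparisons between genes use RPKM, which also divides by exon length. Fold changes, their standard errors (SE) and overlaps of groups are on the deposited log2 scale, and a gene is said to rise, fall or differ where the adjusted p of limma (Benjamini-Hochberg over all genes tested) was under 0.05. Some settings rest on fewer libraries, and what this did to calls was not tested. With the term for the digits (5-digit column numbers), FL-HER2 on day 10 rests on the 2 libraries with 3 digits. The libraries with like muscle content held 0.1% to 1.3% muscle reads. They numbered 3 and 4 on day 10 and 8 and 6 on day 22, FL-HER2 first. In FL-HER2 their muscle reads still ran from 0.883% to 1.24% on day 10 and from 0.112% to 0.921% on day 22.

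Jag1 was higher with p95HER2 on both days, and the Jagged ligands, Dll1 and Notch2 fell between day 10 and day 22 under both constructs while Notch1 and Hey1 rose. Hes1, Notch3 and Notch4 passed no test. On day 10, 2 of the 10 members were higher with p95HER2 (Jag1 and Notch2), where 15.2% of all genes tested were, and 1 was lower (Jag2), where 26.1% were. On day 22, 2 members were higher (Jag1 and Dll4), against 2.98% of all genes, and 0 were lower, against 1.54%. From day 10 to day 22 in FL-HER2 tumors 2 members rose and 4 fell, against 20.7% and 30.6% of all genes. In p95HER2 tumors 2 rose and 4 fell as well, against 16.6% and 18.6%. Apart from the day 22 comparison, where few genes were called, a large share of all genes passed these tests, and the members' counts are to be read against these shares. The comparisons share groups: each day 10 or day 22 group enters both a construct and a time comparison.

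**Figure D1:**
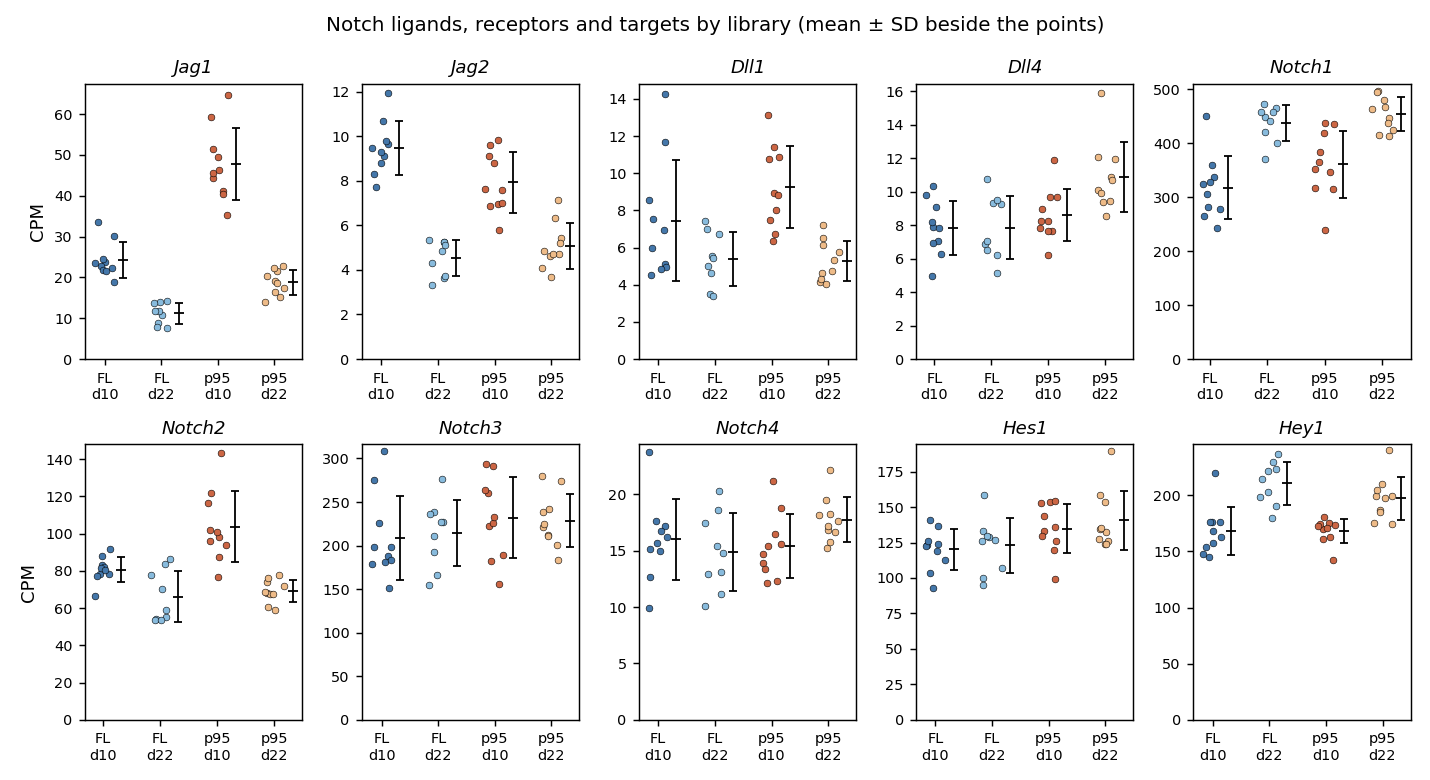
Level of each of the 10 genes in CPM (vertical axes, from 0) in every library of the 4 groups, with the mean and SD beside the points; FL is FL-HER2, p95 is p95HER2, and d10 and d22 are the days. Jag1 lies between 35.3 and 64.6 CPM in p95HER2 on day 10, above all FL-HER2 day 10 libraries in CPM, and is lower on day 22 under both constructs.

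The targets stood highest per length. Median RPKM over all 39 libraries was 62.5 for Hes1, 54.1 for Hey1, 29.2 for Notch1, 27.6 for Notch3, 7.22 for Notch2, 3.75 for Jag1, 2.33 for Dll4, 1.96 for Notch4, 1.5 for Dll1 and 0.985 for Jag2. Hey1 was above Notch1, and Notch3 above Notch2, in 39 of 39 libraries and with no overlap of their ranges. Other neighbors in this order overlapped: Hes1 was above Hey1 in 29 libraries, and Notch1 above Notch3 in 17. These levels depend on the exon lengths assumed, which ranged from 2037 bases for Hes1 to 14232 bases for Notch1.

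Jag1 (chr2:137081456-137116644, minus strand) encodes a Jagged ligand of the Notch receptors. Its level was 18.8, 23.2 and 33.7 CPM in FL-HER2 on day 10 (lowest, median and highest), 35.3, 46.0 and 64.6 CPM in p95HER2 on day 10, 7.59, 11.8 and 14.2 CPM in FL-HER2 on day 22, and 14.1, 19.0 and 22.8 CPM in p95HER2 on day 22. On the log2 scale 9 of the 10 p95HER2 libraries lay above every FL-HER2 library on day 10, and 9 of 10 again on day 22, so the ranges overlapped by single libraries. The construct difference was 0.91 ± 0.12 log2 on day 10 (SE, adjusted p = 3.14e-07) and 0.76 ± 0.13 on day 22 (adjusted p = 1.11e-04). It was not shown to differ between the days (change -0.15 ± 0.18 log2, adjusted p = 0.572).

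With time Jag1 fell by 1.25 on the log2 scale in FL-HER2 tumors (SE 0.13, adjusted p = 1.55e-10) and fell by 1.41 in p95HER2 tumors (SE 0.12, adjusted p = 8.43e-12). The day 10 and day 22 groups did not overlap under either construct, which held for 2 members in FL-HER2 (Jag1 and Jag2), where 6.89% of all genes were lower on day 22 without overlap, and for 2 in p95HER2 (Jag1 and Notch2), where 4.14% were. The construct difference held in all 17 other settings and with each library left out. On day 10 it ran from 0.85 to 1.22 log2 over these settings, and on day 22 from 0.67 to 0.86.

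Fibroblast markers moved with these results: 11 of 12 were lower in p95HER2 on day 10 (median change -1.42 log2), opposite to Jag1, and 11 of 12 fell with time in FL-HER2 (median -2.25) and 8 of 12 in p95HER2 (median -0.85), as Jag1 did. With the fibroblast score of each library as a covariate, which was chosen after seeing the data, the Jag1 construct difference on day 10 was 1.22 log2 (adjusted p = 4.70e-05) and its fall in p95HER2 was -1.21 (adjusted p = 2.72e-07). Its fall in FL-HER2 was then -0.80 and missed the threshold (adjusted p = 0.0710), and 0 of the 6 members called with time in FL-HER2 passed with this covariate. The fibroblast scores of the FL-HER2 groups did not overlap (11.6 to 12.9 on day 10 and 9.52 to 10.9 on day 22), so in FL-HER2 day and fibroblast level cannot be told apart. The mural scores of these groups did not overlap either (9.13 to 10.2 on day 10 and 7.69 to 8.59 on day 22). Day and mural level therefore cannot be told apart in FL-HER2, for any gene below. In p95HER2 the fibroblast scores overlapped only narrowly (10.6 to 11.81 on day 10 and 9.68 to 10.65 on day 22). The mural scores did so there as well (8.65 to 9.89 on day 10 and 8.14 to 8.71 on day 22). Day and fibroblast or mural level can therefore barely be told apart there. Between the constructs on day 10 the fibroblast scores also overlapped only narrowly (11.6 to 12.9 in FL-HER2 and 10.6 to 11.81 in p95HER2). Construct and fibroblast level can thus barely be told apart on day 10, for any gene.

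Jag2 (chr12:112907819-112929776, minus strand) encodes the other Jagged ligand and was the lowest of the 10 genes per length. In FL-HER2 it lay at 7.70, 9.39 and 11.9 CPM on day 10 and at 3.33, 4.86 and 5.34 CPM on day 22. In p95HER2 it lay at 5.80, 7.60 and 9.85 CPM on day 10 and at 3.66, 4.79 and 7.13 CPM on day 22. All FL-HER2 libraries of day 22 were below all of day 10, and in p95HER2 8 of the 10 day 22 libraries were below all of day 10.

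The fall of Jag2 with time was -1.19 ± 0.12 log2 in FL-HER2 (adjusted p = 1.11e-10), and for p95HER2 it was -0.71 ± 0.11 (adjusted p = 3.98e-06). In FL-HER2 11 of 12 fibroblast and 10 of 11 mural markers fell as well, and with the fibroblast score the fall of Jag2 there was -0.49 and did not pass (adjusted p = 0.233). On day 10 it was lower with p95HER2, the opposite of Jag1, by -0.32 ± 0.11 log2 (adjusted p = 0.0227), and 6 of the 10 p95HER2 libraries were below all FL-HER2 libraries. The day 10 difference was lost without FL-HER2 day 10 replicate 3 (-0.28, adjusted p = 0.0511) or p95HER2 day 10 replicate 6 (-0.28, adjusted p = 0.0510), after quantile normalization (-0.05, adjusted p = 0.716), in the libraries with like muscle content (-0.29, adjusted p = 0.419) and with the term for the digits (-0.27, adjusted p = 0.427). It was also lost with the muscle score (-0.31, adjusted p = 0.0974), the endothelial score (-0.047, adjusted p = 0.816) and the mural score (-0.015, adjusted p = 0.944), and with the fibroblast score it turned to 0.14 (adjusted p = 0.681). On day 22 the difference was 0.15 ± 0.12 log2 (adjusted p = 0.548).

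Jag2 was the single member whose construct difference changed between the days (0.47 ± 0.16 log2, adjusted p = 0.0382), where 19.6% of all genes tested passed this test in either direction. Leaving out each library in turn gave 0.42 to 0.52 log2, and the adjusted p was above 0.05 (0.0507 to 0.0644) when 1 of these 13 libraries was left out: FL-HER2 day 10 replicates 3, 4 and 6, FL-HER2 day 22 replicates 1, 4 and 9, p95HER2 day 10 replicates 6, 7 and 8, and p95HER2 day 22 replicates 1, 2, 9 and 10. Jag2 kept this call in 4 of 16 other settings, and with library weights the single member called was Notch4 (0.48, adjusted p = 0.0138), with Jag2 at 0.38 (adjusted p = 0.0530).

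Dll1 (chr17:15367354-15376872, minus strand) encodes a Delta-like ligand. It lay at 4.54, 6.46 and 14.3 CPM in FL-HER2 on day 10 and at 3.39, 5.45 and 7.44 CPM on day 22, and at 6.33, 8.90 and 13.2 CPM in p95HER2 on day 10 and 4.02, 5.03 and 7.19 CPM on day 22. In p95HER2 9 of the 10 day 22 libraries were below all of day 10, and in FL-HER2 3 of 9 were. Dll1 fell by 0.86 log2 in p95HER2 (SE 0.18, adjusted p = 1.84e-04) and by 0.52 in FL-HER2 (SE 0.18, adjusted p = 0.0173), and the difference between these falls did not pass the test (-0.34 ± 0.26, adjusted p = 0.356).

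Within FL-HER2 on day 10, Dll1 split with the column numbers: the 2 libraries with 3 digits held 11.7 and 14.3 CPM and the 8 with 5 digits held 4.54 to 8.59 CPM. This difference was -1.08 ± 0.26 log2 (adjusted p = 0.187), and 0 of 13650 genes passed the test between these libraries. With a term for the digits, which sets day 22 against these 2 libraries with 3 digits alone, the fall in FL-HER2 was -1.39 log2 (adjusted p = 2.18e-04). The fall was lost after quantile normalization (-0.20, adjusted p = 0.351), in voom and log2(CPM + 1) fits, in the libraries with like muscle content (-0.61, adjusted p = 0.0648) and with the fibroblast score (-1.14, adjusted p = 0.0808). On day 10 the construct difference was 0.33 ± 0.18 log2 (adjusted p = 0.143), which passed without FL-HER2 day 10 replicate 9 (0.44, adjusted p = 0.0313) and after quantile normalization (0.65, adjusted p = 0.00375), and was -0.54 (adjusted p = 0.184) with the term for the digits.

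Dll4 (chr2:119325784-119335962, plus strand) encodes the Delta-like ligand of sprouting and arterial endothelium. On day 22 it lay at 5.12, 7.05 and 10.8 CPM in FL-HER2 and at 8.56, 10.4 and 15.9 CPM in p95HER2, with 5 of the 10 p95HER2 libraries above all FL-HER2 libraries and 10 of 10 above the FL-HER2 median. On day 10 it lay at 4.95, 7.85 and 10.3 CPM in FL-HER2 and at 6.2, 8.24 and 11.9 CPM in p95HER2, and these groups overlapped widely. The difference was 0.48 ± 0.13 log2 on day 22 (adjusted p = 0.0296) and 0.09 ± 0.13 on day 10 (adjusted p = 0.618), and the change between days did not pass the test (0.40 ± 0.19, adjusted p = 0.129).

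Of the 18 endothelial markers 1 was higher with p95HER2 on day 22 and 0 were lower, against 2.98% and 1.54% of all genes. Their median change was 0.29 log2, and their summed level was 379 to 601 CPM in FL-HER2 and 454 to 706 CPM in p95HER2, ranges that overlapped widely. With the endothelial score as a covariate the Dll4 difference was 0.28 log2 and did not pass (adjusted p = 0.199), nor did it in the libraries with like muscle content (0.49, adjusted p = 0.0844). It was also lost without FL-HER2 day 22 replicates 1, 3, 8 or 9 or p95HER2 day 22 replicates 1 or 9, with 0.41 to 0.47 log2 and adjusted p of 0.0584 to 0.0770. With time Dll4 moved by -0.12 ± 0.13 log2 in FL-HER2 (adjusted p = 0.454) and by 0.27 ± 0.13 in p95HER2 (adjusted p = 0.106). The change in p95HER2 passed without p95HER2 day 10 replicate 10 (0.33, adjusted p = 0.0485), in voom and log2(CPM + 1) fits and with the mural score (0.31 to 0.49). On day 10 the Dll4 difference passed after quantile normalization (0.41, adjusted p = 0.0176) and with the endothelial score (0.50, adjusted p = 0.00305). With the endothelial score Dll4 rose in FL-HER2 (0.39, adjusted p = 0.0299), where 16 of 18 endothelial markers fell (median -0.69).

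**Figure D2:**
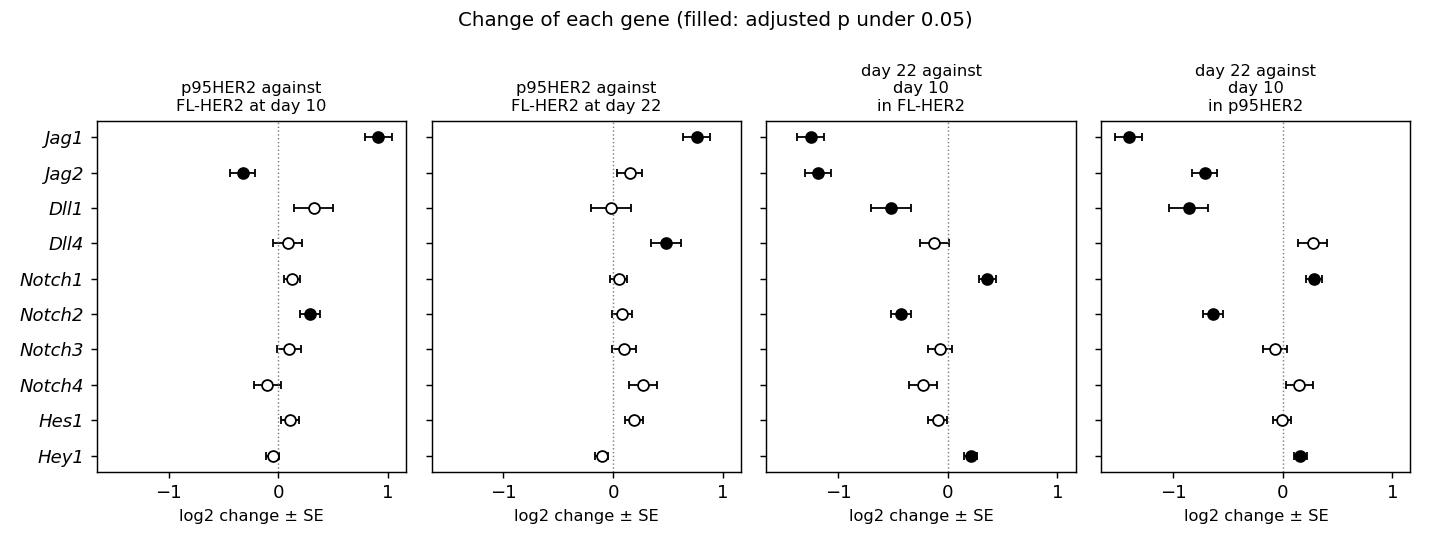
Log2 change of each of the 10 genes with its SE (horizontal axes) for the 2 construct comparisons and the 2 time comparisons; filled points passed an adjusted p under 0.05. Jag1 stands at 0.91 and 0.76 for the construct and at -1.25 and -1.41 for time, and Notch1 and Notch2 lie on opposite sides of 0 in both time comparisons.

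The makeup of the 4 ligands differed between the days, as a description of their RPKM with no test. Jag1 made up 44.7% ± 5.9 of summed ligand RPKM in FL-HER2 on day 10 and 32.5% ± 6.0 on day 22 (SD, n = 10 and 9), and 59.2% ± 5.4 and 40.2% ± 5.3 in p95HER2 (SD, n = 10 each). Dll4 made up 21.9% ± 4.4 and 34.4% ± 6.3 in FL-HER2 and 16.3% ± 2.7 and 35.2% ± 5.9 in p95HER2. Dll4 was thus a larger share of the ligands at the later day, while its own change with time passed no test.

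**Figure D3:**
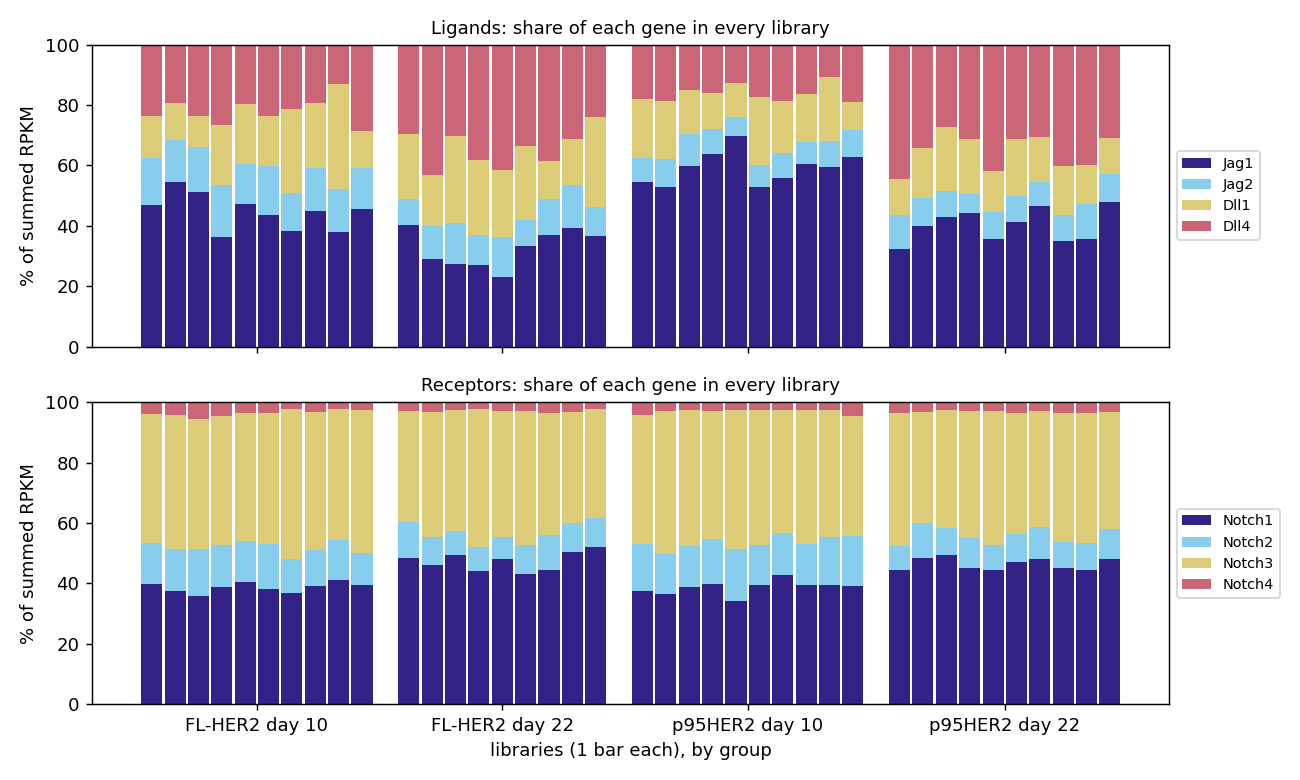
Share of each ligand (top) and each receptor (bottom) in the summed RPKM of its family, in percent, with 1 bar for each library and groups side by side. The share of Jag1 among ligands is lower and that of Notch1 among receptors higher on day 22, with group means of 32.5% and 47.4% in FL-HER2.

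Notch1 (chr2:26457903-26516663, minus strand) encodes the receptor with the most reads of the 4. Its level was 243.6, 315.5 and 450.4 CPM in FL-HER2 on day 10 and 371.7, 448 and 473.8 CPM on day 22. In p95HER2 it was 239.8, 359.1 and 438.1 CPM on day 10 and 413.4, 455.4 and 497.8 CPM on day 22. All day 22 libraries lay above the day 10 median of their construct, and 3 of 9 (FL-HER2) and 5 of 10 (p95HER2) lay above every day 10 library.

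Notch1 rose by 0.36 ± 0.08 log2 in FL-HER2 (adjusted p = 1.72e-04) and by 0.28 ± 0.07 in p95HER2 (adjusted p = 0.00276). The construct differences were 0.13 ± 0.07 log2 on day 10 (adjusted p = 0.169) and 0.05 ± 0.08 on day 22 (adjusted p = 0.787). The day 10 difference passed without FL-HER2 day 10 replicate 10 or p95HER2 day 10 replicate 1, with up to 0.19 log2, and with library weights (0.15, adjusted p = 0.0341). With the muscle score, in the libraries with like muscle content and with the fibroblast score this difference was negative and not called. The rise in FL-HER2 was 0.26 log2 (adjusted p = 0.159) with the term for the digits, 0.13 (adjusted p = 0.563) with the mural score and 0.098 (adjusted p = 0.828) with the fibroblast score. In p95HER2 the rise was 0.20 (adjusted p = 0.0720) with the mural score and 0.17 (adjusted p = 0.211) with the fibroblast score.

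Notch2 (chr3:98013527-98150361, plus strand) encodes another receptor and moved the other way. It lay at 66.8, 81.0 and 91.8 CPM in FL-HER2 on day 10 and at 53.5, 59.0 and 86.6 CPM on day 22, and at 76.7, 99.5 and 143 CPM in p95HER2 on day 10 and 59.0, 68.5 and 77.9 CPM on day 22. Every p95HER2 library of day 22 was below every day 10 library on the log2 scale, and 7 of 9 FL-HER2 libraries were. Notch2 fell by 0.63 log2 in p95HER2 (SE 0.09, adjusted p = 5.38e-07) and by 0.43 in FL-HER2 (SE 0.09, adjusted p = 2.17e-04). The fall in FL-HER2 did not pass with the mural score (-0.26, adjusted p = 0.335), the term for the digits (-0.41, adjusted p = 0.0670) or the fibroblast score (-0.48, adjusted p = 0.194). The mural and fibroblast scores of the FL-HER2 groups did not overlap between the days, as given above.

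On day 10 Notch2 was higher with p95HER2 by 0.29 ± 0.09 log2 (adjusted p = 0.0108), with 6 of 10 libraries above all FL-HER2 libraries. It kept this call with each library left out, and lost it with the muscle score (0.23, adjusted p = 0.117), in the libraries with like muscle content (0.32, adjusted p = 0.333), with the term for the digits (0.31, adjusted p = 0.214) and with the fibroblast score (0.25, adjusted p = 0.351). With like muscle content and with the term for the digits, which rest on fewer libraries, the difference itself was no smaller than 0.29. All 20 muscle markers were lower in p95HER2 on day 10. On day 22 the difference was 0.08 ± 0.09 log2 (adjusted p = 0.696), and the change between days was not called (-0.20 ± 0.13, adjusted p = 0.272).

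Notch3 (chr17:32120820-32166852, minus strand), a receptor of tumor epithelium and of vessel-wall cells, had medians of 193.1 to 229.8 CPM in the 4 groups. Its changes lay between -0.07 and 0.10 log2 with SE of 0.11, and adjusted p were 0.483 on day 10, 0.702 on day 22, 0.623 in FL-HER2 and 0.665 in p95HER2. Notch3 was above Notch1 in RPKM in 10 of 10 FL-HER2 and 9 of 10 p95HER2 libraries on day 10, and Notch1 was above Notch3 in 7 of 9 and 9 of 10 on day 22. Which gene stands higher depends on the exon lengths assumed, 14232 bases for Notch1 and 8089 for Notch3, as do the shares that follow. In reads Notch1 was the higher, as given above. Among the receptors the share of Notch1 was 38.7% ± 1.6 and 47.4% ± 3.1 in FL-HER2 on day 10 and day 22 and 38.8% ± 2.3 and 46.5% ± 2.0 in p95HER2 (SD), and that of Notch2 was 13.2% ± 1.6 and 9.39% ± 1.56, and 14.7% ± 1.4 and 9.37% ± 1.09.

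Notch4 (chr17:34564268-34588503, plus strand), the receptor of endothelium, had medians of 14.8 to 17.4 CPM and passed no test. Its construct difference was -0.10 ± 0.12 log2 on day 10 (adjusted p = 0.533) and 0.28 ± 0.13 on day 22 (adjusted p = 0.239), and with time it moved by -0.22 ± 0.13 in FL-HER2 (adjusted p = 0.138) and for p95HER2 by 0.15 ± 0.12 (adjusted p = 0.367). Of the 18 endothelial markers 13 were lower with p95HER2 on day 10 (median -0.54), and 16 fell between the days in FL-HER2. With the endothelial score Notch4 was higher with p95HER2 on day 10 (0.35, adjusted p = 0.00869) and rose from day 10 to day 22 in FL-HER2 (0.34, adjusted p = 0.0181). Without the skin-marked libraries (-0.33, adjusted p = 0.0489), without FL-HER2 day 10 replicate 9 (-0.30, adjusted p = 0.0388) and with library weights (-0.29, adjusted p = 0.0221) it fell in FL-HER2, so its direction there depended on the setting.

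Hes1 (chr16:30064384-30067796, plus strand) encodes a repressor of the bHLH family and is a direct Notch target in many tissues. Its medians were 123, 126.9, 134.3 and 133.6 CPM in FL-HER2 on day 10 and day 22 and p95HER2 on day 10 and day 22. Its changes were 0.11 ± 0.08 log2 between constructs on day 10 (adjusted p = 0.310), 0.19 ± 0.09 on day 22 (adjusted p = 0.217), -0.09 ± 0.09 from day 10 to day 22 in FL-HER2 (adjusted p = 0.379) and, over the same days, -0.01 ± 0.08 in p95HER2 (adjusted p = 0.962). The groups overlapped in each comparison, and no setting and no left-out library gave Hes1 a call. Its change with time in FL-HER2 turned sign in log2(CPM + 1) and voom fits, so its direction there depended on the scaling.

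Hey1 (chr3:8663359-8667256, minus strand) encodes a related repressor. It lay at 144.7, 165.3 and 220 CPM in FL-HER2 on day 10, 179.8, 214.8 and 236.9 CPM on day 22, 142.8, 171.7 and 180.9 CPM in p95HER2 on day 10 and 174.2, 198.6 and 240.6 CPM on day 22. In p95HER2 6 of 10 day 22 libraries lay above all of day 10, and in FL-HER2 1 of 9 did. Hey1 rose by 0.21 ± 0.06 log2 in FL-HER2 (adjusted p = 0.00319) and by 0.16 ± 0.06 in p95HER2 (adjusted p = 0.0284).

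The rise of Hey1 in p95HER2 was lost without p95HER2 day 10 replicate 10, p95HER2 day 22 replicate 3 or p95HER2 day 22 replicate 6 (0.13 to 0.15 log2, adjusted p of 0.0529 to 0.0709). It was also lost without the skin-marked libraries (0.15, adjusted p = 0.127). Under both constructs the rise did not pass in the libraries with like muscle content (0.14 and 0.12 log2, FL-HER2 first) or with the mural score (0.013 and 0.084), and in FL-HER2 it did not pass with the endothelial score (0.075) or the term for the digits (0.13). With the fibroblast score the change of Hey1 was -0.12 in FL-HER2 (adjusted p = 0.649) and for p95HER2 it was 0.01 (adjusted p = 0.926). Between the constructs Hey1 differed by -0.05 ± 0.06 log2 on day 10 (adjusted p = 0.507) and by -0.10 ± 0.06 on day 22 (adjusted p = 0.389), and the day 10 difference passed with the fibroblast score (-0.27, adjusted p = 0.0408). That score overlapped only narrowly between the constructs on day 10, as given above.

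**Figure D4:**
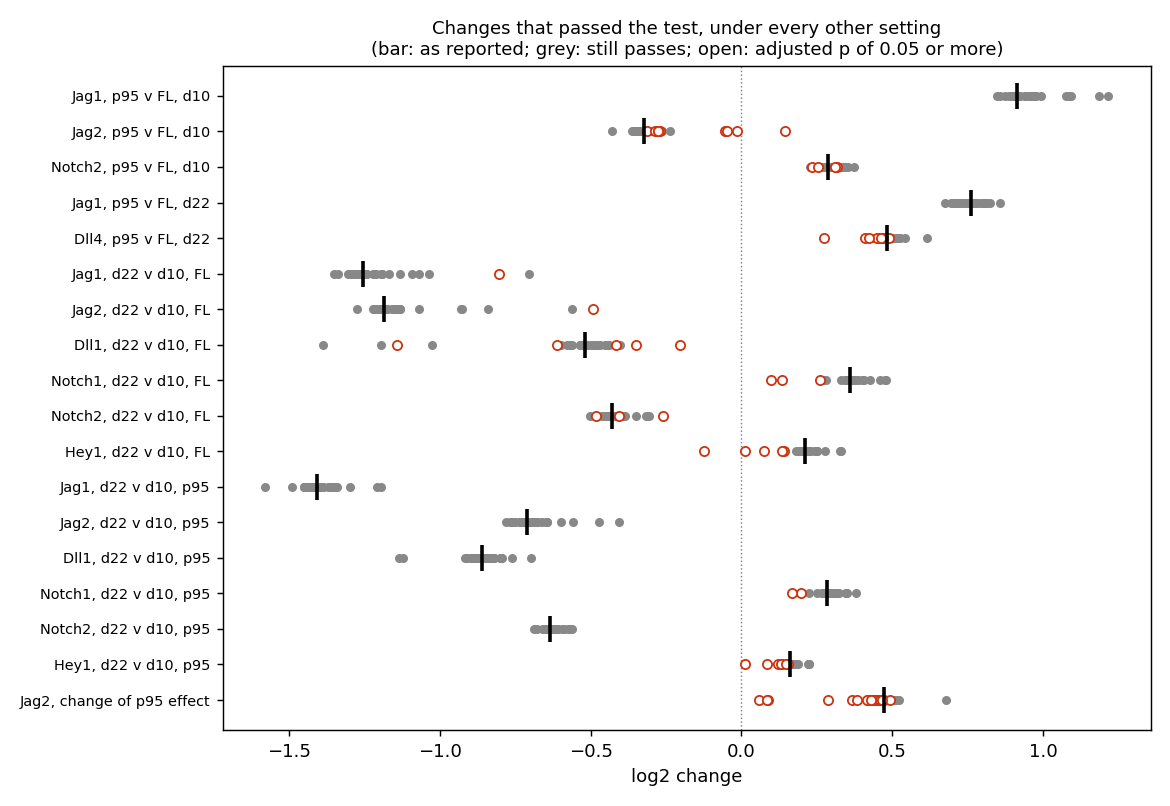
Each change that passed the test (bars) with its log2 value under each other setting and with each library left out; grey points still passed, open points had an adjusted p of 0.05 or more, and the dotted line is 0. Both construct differences of Jag1 stayed between 0.67 and 1.22 log2 and passed throughout, and the Jag2 change between days passed in few settings.

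The other genes of the pathway numbered 75 in 8 lists, of which 66 were tested. Of these, 22 were higher and 15 lower with p95HER2 on day 10, against 15.2% and 26.1% of all genes, and 1 was higher (Epn2, an endocytic adaptor, 0.22 ± 0.05 log2, adjusted p = 0.00538) and 1 lower (Kat2a, a histone acetyltransferase, -0.17 ± 0.05, adjusted p = 0.0439) on day 22. With time 12 rose and 17 fell in FL-HER2, against 20.7% and 30.6% of all genes, and 6 rose and 17 fell in p95HER2, against 16.6% and 18.6%. The construct difference changed between days for 13, against 19.6% of all genes, with 6 positive and 7 negative changes. For FL-HER2 and for the change between days these counts lie near the shares over all genes. The Epn2 call was kept in 15 of 17 other settings and with each library left out, and that of Kat2a in 8 of 17 settings and 26 of 39 times that a library of the study was left out (-0.19 to -0.15 log2, adjusted p of 0.0242 to 0.121).

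Lfng, the Fringe glycosyltransferase that makes receptors respond less to Jagged and more to Delta-like ligands, fell with the Jagged ligands. Its level was 40.8, 62.5 and 69.3 CPM in FL-HER2 on day 10 and 25.2, 32.3 and 40.4 CPM on day 22, and 34.4, 59.4 and 78.2 CPM and 29.8, 34.9 and 46.7 CPM in p95HER2. Lfng fell by 1.01 log2 in FL-HER2 (SE 0.11, adjusted p = 1.88e-09) and by 0.77 in p95HER2 (SE 0.11, adjusted p = 5.38e-07), and with the fibroblast score these falls were -0.27 (adjusted p = 0.568) and -0.44 (adjusted p = 0.00697). It did not pass the test between constructs (-0.13 ± 0.11 on day 10, adjusted p = 0.357).

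In the nuclear complex 6 of 9 genes were higher and 1 lower with p95HER2 on day 10, against 15.2% and 26.1% of all genes, and the median change was 0.18 log2 against -0.04 over all genes. Rbpj, the DNA-binding subunit, was higher by 0.19 ± 0.06 log2 (adjusted p = 0.0143) and fell in p95HER2 between the days by 0.29 log2 (SE 0.06, adjusted p = 4.72e-04), with medians of 76.0 and 88.6 CPM on day 10 and 85.8 and 74.6 CPM on day 22, FL-HER2 first. The day 10 difference of Rbpj was 0.11 to 0.29 log2 over the other settings and was called in 11 of 17.

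Of the 6 other targets tested, 1 was higher and 1 lower with p95HER2 on day 10, 2 rose and 1 fell in FL-HER2 between the days, and 1 rose and 1 fell in p95HER2, where the shares over all genes are those given above. Nrarp, a target that feeds back on the receptor complex, fell in p95HER2 by 0.56 log2 (SE 0.09, adjusted p = 4.69e-06), with medians of 66.9 and 44.0 CPM, and moved by -0.17 ± 0.09 in FL-HER2 (adjusted p = 0.129). Hey2 was higher with p95HER2 on day 10 (0.67 ± 0.21 log2, adjusted p = 0.00901) and rose in FL-HER2 (0.93 ± 0.21, adjusted p = 3.60e-04), at medians of 1.83 to 4.01 CPM, and kept these calls in 11 and 12 of 16 other settings. Ccnd1, which encodes cyclin D1 and has many inputs besides Notch, rose by 0.87 ± 0.08 log2 in FL-HER2 (adjusted p = 7.83e-12) and by 0.65 ± 0.07 in p95HER2 (adjusted p = 5.96e-09), with group medians of 1030 to 2124 CPM, and with the fibroblast score the rise in FL-HER2 was 0.37 (adjusted p = 0.130).

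Heyl, a Hey family target known from smooth muscle, fell in FL-HER2 by 1.15 log2 (SE 0.21, adjusted p = 2.40e-05) from a median of 6.36 to 2.92 CPM. Of the mural cell markers 10 of 11 fell in the same comparison (median -1.13), and Heyl did not pass the test with the mural (-0.013), endothelial (-0.30) or fibroblast (-0.0083) score or the term for the digits (-0.43). Hes5 had 0 reads in 35 of 39 libraries and was not tested.

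The ligand-like genes Dlk1, Mfap2 and Mfap5 were all 3 lower with p95HER2 on day 10 and all 3 fell with time under both constructs. The largest of these changes were -3.83 ± 0.43 log2 for Dlk1 in FL-HER2 (adjusted p = 2.06e-09) and -2.54 ± 0.21 for Mfap2 in FL-HER2 (adjusted p = 7.62e-13), from medians of 7.97 to 0.592 CPM and of 19.5 to 3.51 CPM. Mfap2 and Mfap5 encode microfibril proteins of connective tissue, and fibroblast markers moved in the same directions in these comparisons, as given above. With the fibroblast score the FL-HER2 falls of Dlk1 and Mfap2 were -1.45 (adjusted p = 0.387) and -0.73 (adjusted p = 0.168).

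Within groups, the genes most like each member were taken by Pearson correlation of log2 values centred on the group means over 39 libraries, which share depth, scaling and tissue content, and are given as a description. Most like Jag1 were Ehd2 (r = 0.77) and Zdhhc9 (0.77), most like Jag2 were Slc12a4 (0.68) and Ltbp4 (0.66), and most like Dll1 were Kdm1a (0.86) and Gsap (0.86). For Dll4 they were Qsox1 (0.74) and Tspan7 (0.70). For the receptors they were Rcor1 (0.86) and Shroom2 (0.85) with Notch1, Rdx (0.88) and Mtpn (0.87) with Notch2, Shank2 (0.84) and Zfp704 (0.84) with Notch3, and Col4a2 (0.90) and Mmrn2 (0.89) with Notch4. For the targets they were Aqp5 (0.76) and Dpm3 (0.75) with Hes1 and Fmo1 (0.68) and Ppp1r1b (0.68) with Hey1.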

How the data were processed

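Directional poly(A) libraries of 39 PB2 tumors were grouped by the construct and day in their labels. Replicates were numbered in record order, which gives no pairing. The submitters' processing notes name STAR 2.4.2a, DESeq2 and the mm10 build. For the read counter, annotation and strand setting the answer is not given in the sources used here. Although named for CPM, the deposited table holds log2(count / factor + 1), judged by its values: once the log2 was undone, 100% of them came to whole reads in every library (within 0.001 reads, at most 2.70e-08 off). The authors' deposited log2 values were therefore tested as they stand, with their pseudocount of 1. Whole reads were recovered from the steps, and CPM and RPKM were computed from them with exon lengths and positions of GENCODE M21 (GRCm38, the assembly of mm10). At the lowest depth 1 CPM stands for 21.8 reads.

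The tests covered the 13650 genes that reached 1 CPM in 9 or more libraries. Group means of all libraries were fitted in limma 3.58.1 under R 4.3.3, and 5 two-sided contrasts were taken with trended eBayes moderation. P-values were adjusted by Benjamini-Hochberg over all genes tested, and the procedure was tested on simulated data. Other settings were no filter and a filter at 5 CPM, pseudocounts of 0.1 and 5, log2(CPM + 1), median-of-ratios factors, quantile normalization, voom on the recovered reads, library weights, a fit limited to the 2 groups compared, list scores (mean log2 value of muscle, endothelial, mural or fibroblast markers) as covariates, the libraries with 0.1% to 1.3% muscle reads, those without skin markers, a term for the 5-digit column numbers, and leaving out each library. The limited fit was not run for the change between days, which has 16 other settings. The fibroblast score was chosen after seeing the data.

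The members, gene lists, markers, tests and most settings were chosen with earlier results of these data known. From the pathway lists, called genes with the smallest adjusted p and Rbpj, Lfng, Heyl, Hey2, Nrarp and Hes5 were named. Not all genes that this rule takes are reported.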

Additional observations from a re-analysis of the deposited data

Results flagged for a closer look

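Notch1 in p95HER2 day 10 replicate 1 lay far below the other libraries of its group, at 239.8 CPM against 315.6 CPM in the next and a group median of 359.1 CPM. On the deposited log2 scale, on which this was checked, the gap to the next library was 0.481 of the range of the group, and the limit for 10 samples is 0.466. Of 40 such checks (10 genes in 4 groups) 1 stood out, and chance gives about 1 in 20. The construct difference of Jag2 changed between day 10 and day 22 by 0.47 log2 (adjusted p = 0.0382, limma): Jag2 was lower with p95HER2 at day 10 (-0.32) and its difference at day 22 was 0.15.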

How the results depend on the processing

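No paired analysis was possible because the replicate numbers were given in record order. Over 17 other settings, 773 of 840 member results kept their direction and their side of the threshold, or changed sign with no call either way, and 1921 of 1950 did with each library left out. The cause of the exceptions was not tested. Of the 3 members called between constructs on day 10, 1 was left with the muscle score, in the libraries with 0.1% to 1.3% muscle reads and with the term for 5-digit column numbers. Of 2 on day 22, 1 was left in those libraries and with the endothelial score. Of 6 called with time in FL-HER2, 3 were left with the 5-digit term and 0 with the fibroblast score. The 5-digit term leaves 2 libraries to stand for FL-HER2 on day 10, and the limit on muscle reads leaves 3. The 1 call for the change between days became 0 without a filter, with log2(CPM + 1), median-of-ratios factors, quantile normalization or voom, with the muscle, endothelial, mural or fibroblast score, in the libraries limited by muscle reads and with the 5-digit term, and with library weights it was Notch4 in place of Jag2. Leaving out each library gave 2 to 4 calls on day 10, 1 to 2 on day 22, 6 to 7 with time in FL-HER2, 5 to 6 in p95HER2 and 0 to 1 for the change between days.

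Among the members and some other pathway genes, 188 further results over settings and left-out libraries changed sign with no call either way. Where a call was involved, signs turned as follows. Between constructs on day 10, Jag2 became 0.14 and Mfap2 0.084 with the fibroblast score, and Notch4 became 0.35 with the endothelial and 0.31 with the mural score. With time in FL-HER2, Dll4 became 0.39 and Notch4 0.34 with the endothelial score, Notch4 0.62 with the mural score, and Hey1 -0.12 and Mfap5 0.0017 with the fibroblast score. In FL-HER2 the mural and fibroblast scores did not overlap between the days, so they cannot be told apart from time. Mfap5 in p95HER2 became 0.073 with the fibroblast score, and the change of Mfap2 between days became -0.064 with the endothelial and -0.10 with the fibroblast score. Among the members, counting error weighs most on Jag2 and Dll1, which had as few as 90 and 101 reads in a library. Of the other pathway genes, Dlk1 went down to 0.234 CPM in FL-HER2 on day 22 and Hey2 to 0.642 CPM in FL-HER2 on day 10, so it weighs more on these.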

Other observations

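Tle4, a Groucho-type corepressor that Hes proteins recruit, was lower with p95HER2 on day 10 by -0.68 ± 0.07 log2 (SE, limma adjusted p = 5.67e-09), with medians of 15.4 CPM (FL-HER2) and 10.5 CPM (p95HER2), and kept this call in 17 of 17 other settings. It rose with time in p95HER2 (0.59 ± 0.07, adjusted p = 3.03e-08), and its construct difference changed between days by 0.43 ± 0.11 (adjusted p = 0.00399). Ctbp2, a corepressor that acts with Rbpj in the absence of active Notch, rose with time by 0.73 ± 0.08 log2 in FL-HER2 (adjusted p = 8.58e-10) and by 0.44 ± 0.08 in p95HER2 (adjusted p = 1.79e-05), and kept both calls in 17 of 17 settings. Adam10, the protease that makes the first ligand-dependent cut in the receptor, was higher with p95HER2 on day 10 by 0.24 ± 0.05 log2 (adjusted p = 5.99e-04) and kept this call in 14 of 17 settings.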
